A study of Homo sapiens with 12 samples.

Results

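The response of VCaP cells to testosterone was compared between cells with a normal and a lowered level of PIAS1. VCaP cells were grown from a prostate cancer metastasis in a vertebra, and they express the androgen receptor. All 12 arrays of the series entered the comparison, in 4 groups of 3. Every culture was kept in medium with 2.5% charcoal-stripped serum, which is poor in steroids, for 100 h before RNA was taken, and carried a pool of siRNAs for 96 h. The groups were control siRNA (siSCR), siSCR with 100 nM testosterone for 16 h, siRNA against PIAS1 (siPIAS1), and siPIAS1 with the same testosterone. The quantity described for each gene is the difference between both testosterone responses, that is the log2 change with testosterone after siPIAS1 minus the log2 change after siSCR. It was taken from a limma model of all 12 arrays and called at an adjusted p under 0.05. Of 10710 measured genes, 1065 (9.94%) passed, 523 with a more positive response after siPIAS1 (4.88%) and 542 with a more negative one (5.06%). The model is 1 cell line with 1 siRNA pool per target, and the labels do not say whether replicates were separate cultures, so p-values measure only the spread between these arrays.

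The androgen receptor is a nuclear receptor that binds DNA after it binds testosterone or its derivatives, and switches secretory, metabolic and growth genes of the prostate on or off. PIAS1 belongs to a small family of ligases that attach SUMO, a ubiquitin-like protein, to other proteins, the androgen receptor and its partner factors among them. PIAS proteins were first described as inhibitors of STAT factors, and they can act on receptor targets as coactivators or as corepressors depending on the gene.

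Levels are normalized log2 signals with the SD over 3 arrays, and differences are in log2 units with the standard error, so that 1 unit is a factor of 2. PIAS1 itself was lower after siPIAS1 both without and with testosterone. Its signals were 10.25, 10.37 and 10.33 after siSCR, 11.32, 11.44 and 11.47 after siSCR with testosterone, 9.12, 8.97 and 9.23 after siPIAS1, and 10.52, 10.59 and 10.83 after siPIAS1 with testosterone. Both siPIAS1 groups lay below their siSCR counterparts with no overlap, by 1.21 ± 0.11 without testosterone (adjusted p = 9e-06) and by 0.76 ± 0.11 with it (adjusted p = 0.00015). Testosterone raised PIAS1 in both settings, by 1.09 ± 0.11 after siSCR and 1.54 ± 0.11 after siPIAS1, and the difference of 0.44 ± 0.15 between these responses missed the threshold (adjusted p = 0.08). The 3 arrays of siPIAS1 with testosterone, at 10.65 ± 0.16, all lay above the 3 arrays of siSCR without it, at 10.32 ± 0.06.

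Between 32.5% and 36.0% of probes were detected per array. One array stood apart: replicate 3 of siPIAS1 with testosterone correlated with its group at 0.978 on average, against 0.986 or more for each other array. Without that array 1438 genes were called, 1033 of them also called with it, and none of the 1033 changed sign. All 14 luminal marker genes of the prostate on the array, and 13 of 17 neuroendocrine markers, were detected on at least 3 arrays. In contrast, 6 of 9 basal markers on the array were detected on no array, KRT5 and KRT14 among them. The same held for 7 of 11 fibroblast and smooth muscle markers and 7 of 11 blood and endothelial markers (PTPRC, CD3E, HBB and PECAM1 among them).

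Testosterone changed 4748 genes after siSCR (44.3%) and 5899 after siPIAS1 (55.1%). Between siPIAS1 and siSCR, 1428 genes differed without testosterone (13.3%) and 3586 with it (33.5%). These counts come from comparisons that share arrays with the difference between responses, and are given as its background. Among the called genes the size of that difference ran from 0.41 to 4.34, with a median of 0.78, against a median of 0.24 over all genes and a median standard error of 0.18. A difference of at least 1 unit was called for 269 genes, 134 higher and 135 lower. At an unadjusted p under 0.05 the count was 2926. At the edge of the threshold, POU4F1 (-0.53) and WHR1 (0.53) passed, and DAPK1 (-0.71) and SRSF10 (0.58) did not.

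In the plot of both responses over all genes, the points lie along the diagonal and the called genes fan out on both sides of it. Among 1091 genes whose average response was at least 1 unit, 625 (57.3%) responded more strongly after siPIAS1. Their median response was 1.34 after siSCR and 1.46 after siPIAS1, and the median of the gene by gene difference was 0.10 in the direction of the response. The difference between responses was called for 303 of the 1091 (27.8%), as larger for 188 and as smaller for 115. This is a description of both responses with no test of its own.

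**Figure D1:**
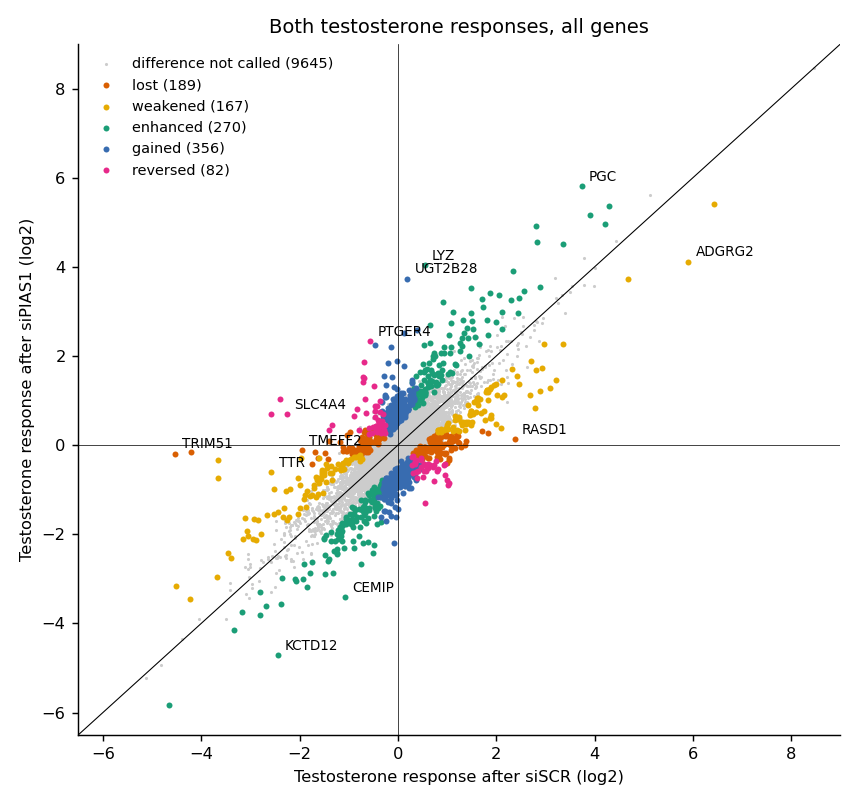
Testosterone response of each of 10710 genes in log2 units, after siSCR on the x axis and after siPIAS1 on the y axis, with genes called for the difference coloured by class and the diagonal marking equal responses. Points near the x axis are the 189 lost responses, points near the y axis the 356 gained ones, and the 82 reversed responses lie in the upper left and lower right quadrants.

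Called genes were put into 5 classes by whether each single response passed its own threshold. A response was lost when only the siSCR response passed, gained when only the siPIAS1 response passed, reversed when both passed with opposite signs, and weakened or enhanced when both passed with the same sign and a smaller or larger size after siPIAS1. A response that did not pass is not shown to be absent, so lost and gained are names of a rule. Gained responses were the largest class with 356 genes (33.4% of the called), followed by 270 enhanced (25.4%), 189 lost (17.7%), 167 weakened (15.7%) and 82 reversed (7.7%), and 1 gene had neither response called. Each class held rising and falling responses in like numbers, as the bar chart of classes shows. Of the 1065 genes, 785 were detected on all 12 arrays, and the differences of the rest depend in part on signals below detection. Their sizes are therefore less certain. For several named genes the difference became smaller when the lowest detected signal replaced undetected ones, as given with those genes below. Without the array that stood apart the classes held 425 gained, 382 enhanced, 293 lost, 235 weakened and 99 reversed responses, and 934 of the 1033 shared genes kept their class.

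**Figure D2:**
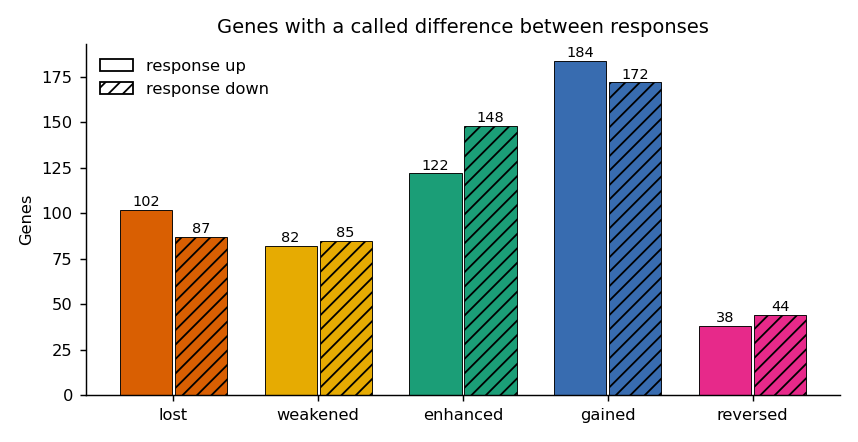
Number of genes in each class of altered testosterone response, with plain bars for responses upward and hatched bars for responses downward (for reversed genes, the direction after siSCR). The tallest bars are the 184 gained upward and 172 gained downward responses, and the lowest are the 38 and 44 reversed ones.

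For the 40 genes named by class, 29 have a promoter in the RefSeq table of GRCh38.p14, covering 250 bases before to 50 after the start. The full palindromic androgen response element was searched only as exact inverted half-sites 3 bases apart. It was found in none of the 8653 promoters of measured genes, and looser matches were not searched. Its half-site is therefore described, AGAACA on either strand (TGTTCT in reverse). The half-site was present in 752 of the 8653 promoters (8.69%) and in 3 of the 29, from the lost, enhanced and gained classes. These 3 are shown because they are the class examples that carry the receptor's half-site next to the start. Each runs 5′ to 3′ on the gene's own strand, and capitals mark the half-site and, in CYP4F22, the GC box (GGGCGG or CCGCCC). The promoter of FAM13C lies at chr10:59362854-59363153 on the minus strand, that of CYP4F22 at chr19:15508275-15508574 on the plus strand and that of REP15 at chr12:27696197-27696496 on the plus strand.
FAM13C: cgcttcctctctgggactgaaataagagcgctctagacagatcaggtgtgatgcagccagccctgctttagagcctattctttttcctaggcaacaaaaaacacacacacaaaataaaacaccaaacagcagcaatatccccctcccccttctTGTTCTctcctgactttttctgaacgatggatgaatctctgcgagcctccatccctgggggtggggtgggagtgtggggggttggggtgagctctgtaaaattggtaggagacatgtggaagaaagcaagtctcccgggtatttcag
CYP4F22: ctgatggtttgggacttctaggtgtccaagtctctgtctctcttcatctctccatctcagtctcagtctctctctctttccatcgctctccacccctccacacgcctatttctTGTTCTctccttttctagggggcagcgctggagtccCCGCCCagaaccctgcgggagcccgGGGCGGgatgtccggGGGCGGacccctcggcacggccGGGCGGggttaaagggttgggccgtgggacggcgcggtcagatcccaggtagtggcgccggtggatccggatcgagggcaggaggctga
REP15: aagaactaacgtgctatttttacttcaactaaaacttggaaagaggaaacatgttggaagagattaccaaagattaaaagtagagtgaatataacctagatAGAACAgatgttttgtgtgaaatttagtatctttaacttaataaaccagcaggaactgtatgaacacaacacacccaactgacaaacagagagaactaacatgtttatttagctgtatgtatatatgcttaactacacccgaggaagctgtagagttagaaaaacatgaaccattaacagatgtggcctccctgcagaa
By class and direction the share of promoters with a half-site ran from 3.85% (1 of 26 reversed upward responses) to 11.9% (7 of 59 weakened downward ones), around the 8.69% over all measured genes. The forkhead motif TGTTTAC, searched on both strands, was in 2.14% of all promoters and in at most 3.7% of a class. A GC box was in 70.4% of all promoters and in 47.1% of those of reversed downward responses (16 of 34). These matches are letters in a short window and carry no test, and most androgen receptor binding lies far from starts.

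Lost responses had siPIAS1 medians near 0. The 102 upward ones had a median of 0.79 after siSCR and -0.04 after siPIAS1, and the 87 downward ones of -0.66 and 0.02. RASD1, a small GTPase of the Ras family known as a glucocorticoid-induced gene, gave 8.09, 8.25 and 7.9995 after siSCR, 10.76, 10.40 and 10.31 after siSCR with testosterone, 9.79, 9.79 and 9.53 after siPIAS1, and 10.17, 9.84 and 9.50 after siPIAS1 with testosterone. All siSCR arrays without testosterone were low, and the siPIAS1 arrays overlapped between both treatments at an intermediate level. Testosterone raised RASD1 5.19-fold after siSCR, while its change after siPIAS1 was 0.13 ± 0.16, and the difference was -2.24 ± 0.23, adjusted p = 3.88e-05. CSGALNACT1, which starts chondroitin sulfate chains, had responses of 1.71 ± 0.18 and 0.31 ± 0.18. After siPIAS1 it gave 7.99, 7.87 and 8.09 without testosterone, and 8.46, 8.65 and 7.78 with it. Replicates 1 and 2 with testosterone lay above all untreated siPIAS1 arrays, and replicate 3, the array that stood apart, lay below them. A weaker rise is therefore not excluded for CSGALNACT1. For FAM13C, whose promoter is shown above, the responses were 1.84 ± 0.15 and 0.27 ± 0.15, with no signal detected in the siSCR group without testosterone. A probe annotated to the microRNA gene MIR574 rose by 1.01 ± 0.28 after siSCR and measured -0.40 ± 0.28 after siPIAS1. It does not measure the mature microRNA, and its call was lost when any of 8 arrays was left out alone, with adjusted p up to 0.0894, and with 0.0849 without the detection filter.

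Among lost downward responses, TMEFF2 had high signals throughout. It encodes a transmembrane protein with follistatin-like and EGF-like domains that is found in prostate and brain. Its signals were 12.65, 12.76 and 12.79 after siSCR, 10.80, 10.82 and 10.73 after siSCR with testosterone, 12.98, 13.16 and 13.06 after siPIAS1, and 12.91, 12.87 and 13.10 after siPIAS1 with testosterone. Only the siSCR arrays with testosterone were low, and they overlapped with no other group. TMEFF2 fell 3.87-fold after siSCR, measured -0.11 ± 0.10 after siPIAS1, and the difference was 1.84 ± 0.14, adjusted p = 1.74e-06. AK5, an adenylate kinase, had responses of -1.68 ± 0.13 and -0.16 ± 0.13. A second probe read -1.81 and -0.995, a difference of 0.82. The level of AK5 after siSCR with testosterone was below detection, and the difference was 0.34 and no longer called (adjusted p = 0.15) when the lowest detected signal replaced all undetected ones.

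TRIM51 is one of several TRIM genes on chromosome 11 with large differences. They are members of the tripartite motif family of RING finger proteins that lie there as near-identical copies, so that a probe may read more than 1 of them. TRIM51 gave 10.95, 10.74 and 11.03 after siSCR, 6.59, 6.24 and 6.26 after siSCR with testosterone, 11.19, 11.004 and 11.21 after siPIAS1, and 10.97, 10.56 and 11.28 after siPIAS1 with testosterone. It was close to its untreated level in every group but siSCR with testosterone, where 1 of 3 arrays detected it. It fell 23.2-fold with testosterone after siSCR, its response after siPIAS1 was -0.20 ± 0.16, and this made a difference of 4.34 ± 0.23, adjusted p = 7.75e-08. TRIM48 differed by 4.06 ± 0.30, TRIM49C by 2.91 ± 0.19 and the neighbouring glutamate receptor pseudogene GRM5P1 by 3.34 ± 0.17. All 3 were detected on no array of siSCR with testosterone, so that their falls there were at least 9.01-fold, at least 5.47-fold and at least 5.69-fold. With undetected signals raised in the same way, the differences were 1.71 for TRIM49C and 2.19 for GRM5P1. TRIM49D1 and TRIM49D2 were detected after siSCR without testosterone and not with it, and rose with testosterone after siPIAS1, so that they counted as reversed, with differences of 3.28 ± 0.23 and 3.45 ± 0.21 (2.06 and 1.92 with undetected signals raised). The probe of TRIM49 differed by 0.44 and that of FOLH1B by -0.25, and neither was called. Without these copies 1058 genes were called.

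Weakened responses went from a median of 1.61 to 0.73 upward (82 genes) and from -1.64 to -0.76 downward (85 genes). NBL1, a secreted antagonist of BMP ligands, had signals of 9.66, 9.36 and 9.57 after siSCR, 12.79, 12.39 and 12.69 after siSCR with testosterone, 9.77, 10.08 and 9.87 after siPIAS1, and 11.23, 11.14 and 11.20 after siPIAS1 with testosterone. The groups did not overlap, and both siPIAS1 groups lay between both siSCR groups. It rose 8.56-fold after siSCR and 2.43-fold after siPIAS1, with a difference of -1.82 ± 0.18, adjusted p = 2.71e-05. A second NBL1 probe differed by -2.10. ADGRG2, an adhesion receptor known from the epididymis, rose at least 35.2-fold after siSCR and 17.4-fold after siPIAS1, where at least marks a group without detected signal and gives a lower bound. Its response differed by -1.79 ± 0.15, adjusted p = 7.14e-06, and by -1.02 with undetected signals raised. CCL2, the chemokine that attracts monocytes, rose 9.23-fold and at least 1.94-fold, a difference of -1.74 ± 0.34. ANXA2P1 rose 6.86-fold and 1.79-fold; it is a pseudogene of the membrane-binding protein ANXA2, and its probe may read ANXA2 too.

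ADAMTS1, a secreted metalloprotease that cuts matrix proteoglycans, was an example of a weakened fall. Its signals were 8.91, 8.75 and 8.95 after siSCR, 7.03, 6.79 and 6.86 after siSCR with testosterone, 9.03, 8.81 and 9.02 after siPIAS1, and 8.76, 8.58 and 8.70 after siPIAS1 with testosterone. The siSCR arrays with testosterone stood alone at the low end, and the siPIAS1 arrays with testosterone lay just below those without it. The fall was 3.93-fold after siSCR and 1.21-fold after siPIAS1, with a difference of 1.70 ± 0.15, adjusted p = 1.01e-05. TTR, the carrier of thyroid hormone and retinol, fell 5.95-fold after siSCR and 1.53-fold after siPIAS1, a difference of 1.96 ± 0.28.

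Enhanced responses went from a median of 0.79 to 1.70 upward (122 genes) and from -0.73 to -1.60 downward (148 genes). PGC, pepsinogen C, a secreted protease precursor of stomach and prostate, gave 5.15, 5.08 and 4.88 after siSCR, 8.76, 8.80 and 8.76 after siSCR with testosterone, 5.02, 4.80 and 5.37 after siPIAS1, and 10.71, 10.66 and 11.24 after siPIAS1 with testosterone. It was not detected without testosterone, and the siPIAS1 arrays with testosterone all exceeded the siSCR arrays with testosterone. The rise was at least 6.21-fold after siSCR and at least 26-fold after siPIAS1, and the difference was 2.07 ± 0.23, adjusted p = 7.52e-05. S100P, a calcium-binding protein, rose at least 2.53-fold and at least 13.5-fold, with a difference of 2.11 ± 0.15. LYZ, the secreted bacteria-lysing enzyme lysozyme, was below detection in every group but siPIAS1 with testosterone, where it reached 8.99 ± 0.08, so that its rise there was at least 7.07-fold (difference 3.50 ± 0.13, adjusted p = 2.85e-09). CYP4F22, a fatty acid hydroxylase of skin lipid synthesis, followed the same pattern, with 8.23 ± 0.19 in that group and a rise of at least 4.16-fold. For LYZ and CYP4F22 the siSCR response lies between levels below detection, so enhanced and gained cannot be told apart.

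CEMIP, a protein needed to break down hyaluronan, had an enhanced fall. Its signals were 8.64, 8.69 and 8.61 after siSCR, 7.64, 7.44 and 7.62 after siSCR with testosterone, 9.92, 9.87 and 9.88 after siPIAS1, and 6.51, 6.76 and 6.15 after siPIAS1 with testosterone. No groups overlapped, and siPIAS1 gave both the highest level, without testosterone, and the lowest, with it. The fall was 2.11-fold after siSCR and 10.7-fold after siPIAS1, with a difference of -2.34 ± 0.18, adjusted p = 3.18e-06. KCTD12, an auxiliary subunit of GABA-B receptors, fell 5.46-fold and at least 20.4-fold. MMP10, the matrix protease stromelysin-2, and FFAR4, a receptor for long-chain fatty acids, were detected only after siPIAS1 without testosterone, at 7.56 ± 0.13 and 7.57 ± 0.14. They fell there at least 2.49-fold and at least 2.51-fold with testosterone, and their siSCR levels were below detection with and without it.

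Gained responses had siSCR medians of -0.05 upward (184 genes) and -0.03 downward (172 genes), against 0.73 and -0.79 after siPIAS1. UGT2B28 belongs to the enzymes that attach glucuronic acid to steroids and so inactivate androgens. Its signals were 5.06, 4.97 and 4.98 after siSCR, 5.02, 5.49 and 5.08 after siSCR with testosterone, 5.40, 5.26 and 5.33 after siPIAS1, and 9.21, 8.97 and 8.997 after siPIAS1 with testosterone. It was detected on all 3 arrays of siPIAS1 with testosterone and on no other array. The rise there was at least 7.39-fold, the change after siSCR was 0.19 ± 0.12, and the difference was 3.54 ± 0.17, adjusted p = 6.45e-08. UGT2B genes are close copies, so the probe may read relatives. FOXJ1, the transcription factor that drives the formation of motile cilia, had responses of 0.12 ± 0.16 and 2.51 ± 0.16. RNF148, a RING finger protein, and REP15, a partner of the vesicle GTPase RAB15 whose promoter is shown above, rose at least 2.67-fold and at least 3.68-fold after siPIAS1. The difference of RNF148 was 2.71 ± 0.26, and 1.26 with undetected signals raised. FOXJ1 and RNF148 were detected on no siSCR array with or without testosterone, so their siSCR responses lie between levels below detection.

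MAN2A1, a Golgi mannosidase that trims protein-bound sugar chains, had a gained fall. Its signals were 7.45, 7.45 and 7.27 after siSCR, 7.09, 7.43 and 7.52 after siSCR with testosterone, 8.26, 8.33 and 8.44 after siPIAS1, and 6.83, 6.72 and 6.62 after siPIAS1 with testosterone. The siSCR arrays overlapped between treatments, whereas the siPIAS1 arrays lay above them without testosterone and below them with it. The response was -0.04 ± 0.12 after siSCR and -1.62 ± 0.12 after siPIAS1, a fall of 3.08-fold, and the difference was -1.58 ± 0.17, adjusted p = 6.2e-05. LGI1, a secreted protein of synapses, and RIMBP2, a protein of presynaptic active zones, had the same pattern, with differences of -2.11 ± 0.23 and -1.45 ± 0.19. CPNE4, a calcium-dependent membrane-binding protein, was level in 3 groups and below detection in siPIAS1 with testosterone, with a difference of -1.44 ± 0.18.

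Reversed responses had medians of 0.57 after siSCR and -0.47 after siPIAS1 for 38 genes, and of -0.46 and 0.54 for 44 genes. ATP1B1, the beta subunit of the sodium pump, gave 9.24, 9.33 and 8.99 after siSCR, 9.99, 10.14 and 10.45 after siSCR with testosterone, 9.77, 9.86 and 9.88 after siPIAS1, and 8.80, 9.16 and 8.87 after siPIAS1 with testosterone. Testosterone moved the siSCR arrays up and the siPIAS1 arrays down, with no overlap within either siRNA. It rose 2.01-fold after siSCR and fell 1.85-fold after siPIAS1, with a difference of -1.90 ± 0.19, adjusted p = 3.67e-05, and a second probe differed by -2.15. PTK6, a cytoplasmic tyrosine kinase, changed by 1.04 ± 0.16 and -0.86 ± 0.16. ACSL1, which couples long-chain fatty acids to coenzyme A, changed by 0.54 ± 0.20 and -1.30 ± 0.20. TMEM154, a transmembrane protein, changed by 0.99 ± 0.16 and -0.79 ± 0.16. PTK6 and TMEM154 were below detection in both siSCR without testosterone and siPIAS1 with it, and their differences of -1.90 ± 0.22 and -1.79 ± 0.23 were -0.68 for both with undetected signals raised.

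PTGER4, the prostaglandin E2 receptor EP4, was the reverse case at a well detected level. Its signals were 8.43, 8.31 and 8.39 after siSCR, 7.70, 8.005 and 7.75 after siSCR with testosterone, 8.82, 8.85 and 8.80 after siPIAS1, and 11.19, 11.30 and 10.97 after siPIAS1 with testosterone. The siSCR arrays with testosterone were the lowest and the siPIAS1 arrays with testosterone the highest, with no overlap among the groups. It fell 1.48-fold after siSCR and rose 5.04-fold after siPIAS1, and the difference was 2.89 ± 0.16, adjusted p = 7.75e-08. SLC4A4, a sodium bicarbonate cotransporter, changed by -2.25 ± 0.12 and 0.69 ± 0.12, a difference of 2.94 ± 0.17, adjusted p = 1.73e-07, with siSCR with testosterone below detection.

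**Figure D3:**
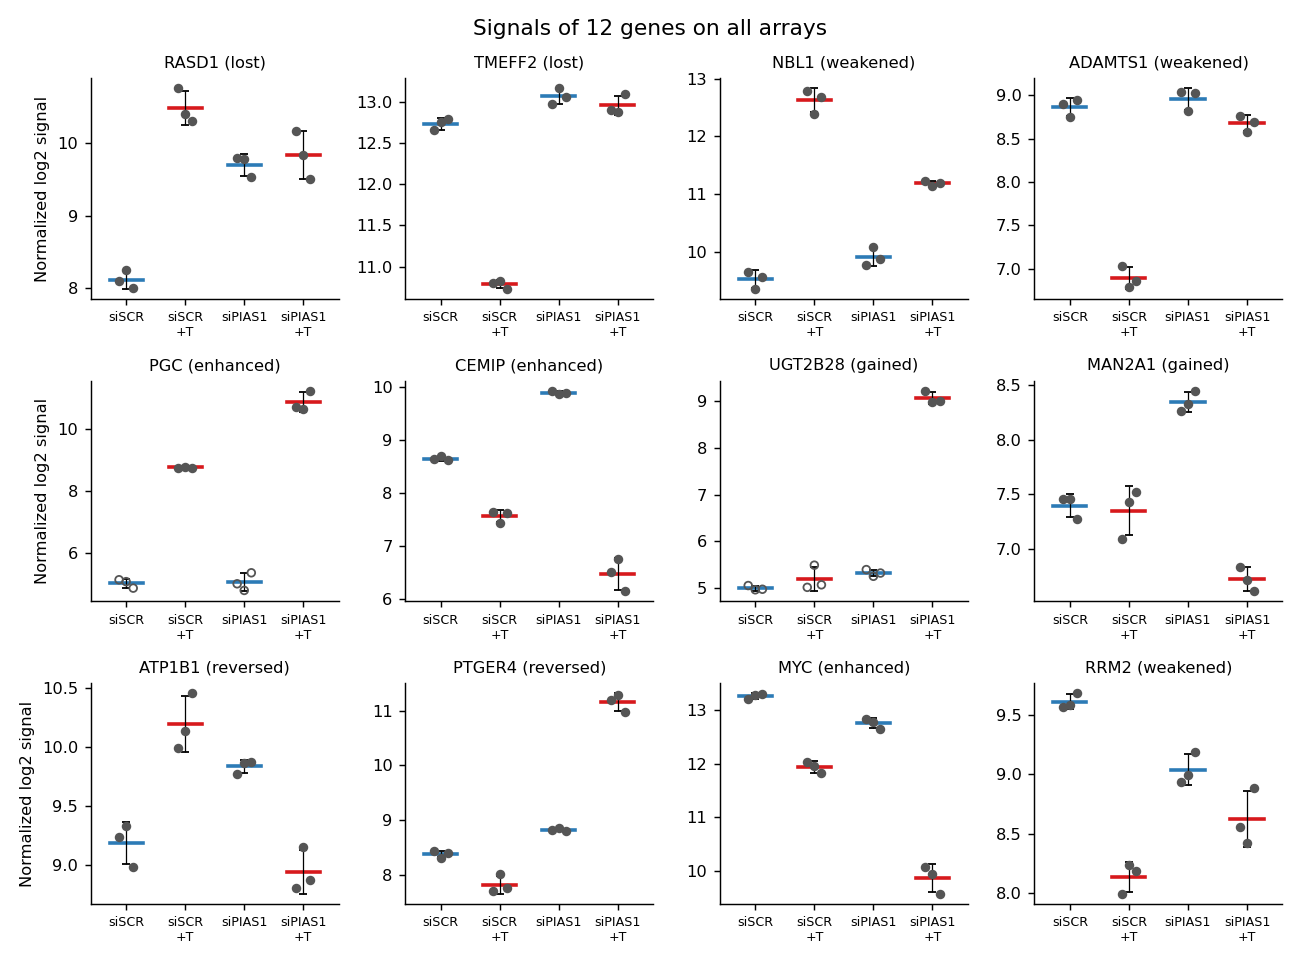
Normalized log2 signal of 12 genes on each array, by group (+T, with 100 nM testosterone), with the mean as a coloured bar and the SD of 3 arrays as an error bar. Hollow points mark groups in which not all 3 arrays detected the probe. TMEFF2 and ADAMTS1 are low only after siSCR with testosterone, PTGER4 and UGT2B28 high only after siPIAS1 with testosterone, and CEMIP and MAN2A1 cross over.

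The same difference can be read as the siPIAS1 shift with testosterone minus the shift without it, from the same arrays. Of the 1065 genes, 689 had a called siPIAS1 shift only with testosterone, 161 only without it, 87 in both with opposite signs, 99 in both with the same sign and 29 in neither. Over all genes the shift was called for 33.5% with testosterone and 13.3% without it, so more calls with testosterone are not particular to these genes. The 1065 genes were also picked by the difference between both shifts, which favours a called shift in at least 1 setting. Enhanced rises had their shift with testosterone only in 89 of 122 genes and without it only in 6. Among enhanced falls the counts were 69 and 52 of 148, and the siPIAS1 level without testosterone was higher by a median of 0.33. MMP10 and FFAR4 belong to the latter, at 2.01 ± 0.17 and 2.09 ± 0.11 without testosterone and 0.09 ± 0.17 and 0.18 ± 0.11 with it. TMEFF2 was higher after siPIAS1 by 0.33 ± 0.10 without and 2.18 ± 0.10 with testosterone. RASD1 was higher by 1.59 ± 0.16 without testosterone and lower by 0.65 ± 0.16 with it.

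**Figure D4:**
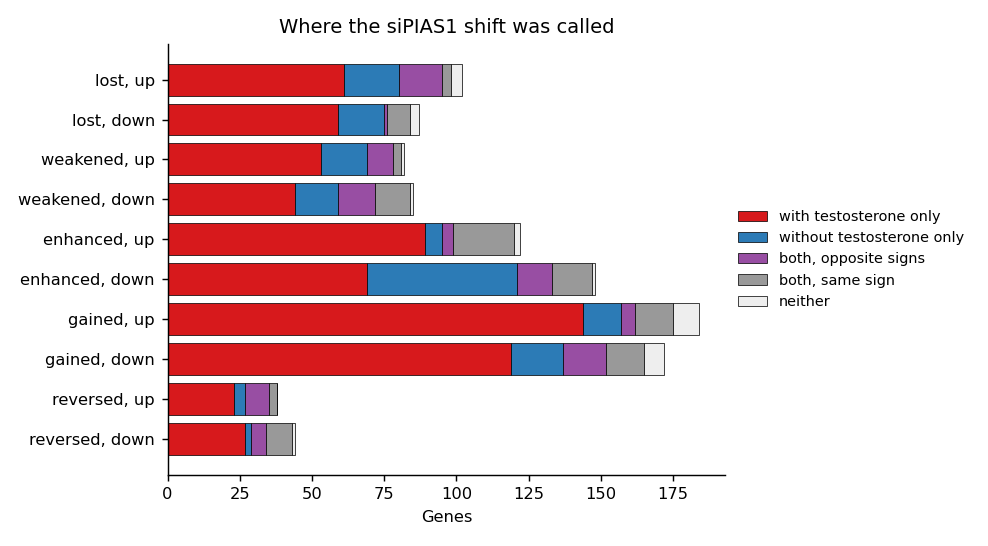
Number of genes per class and direction of response, split by whether the siPIAS1 against siSCR shift was called with testosterone only, without it only, in both or in neither. Red segments, for a shift with testosterone only, are the longest in each class and direction, and the blue segment of enhanced downward responses (52 of 148) is the longest blue one.

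Known androgen targets were called in both directions. Of 40 measured androgen-induced genes, 8 were called higher and 4 lower (30%, against 9.94% over all genes), and the median difference was -0.03, against -0.01 over all genes. The list responded strongly, with median responses of 1.03 after siSCR and 1.23 after siPIAS1. Among all genes with an average rise of at least 1 unit, 31.4% were called, a share close to that of the list. PTGER4 is among those 8. ELL2, an elongation factor of RNA polymerase II, rose by 0.64 ± 0.12 after siSCR and 2.29 ± 0.12 after siPIAS1. UAP1, which makes the sugar donor for N-linked and O-linked glycans, rose by 0.88 ± 0.10 and 2.06 ± 0.10. TMPRSS2, the androgen-induced protease gene that is fused to ERG in VCaP cells, had a weakened rise, 1.81 ± 0.09 against 1.25 ± 0.09 (-0.56 ± 0.13, adjusted p = 0.0155). Of 17 androgen-repressed genes, 6 were called higher and 1 lower (41.2%, against 9.94% over all genes), with a median of 0.43. The median response of the list was still more negative after siPIAS1, at -1.08, than after siSCR, at -0.82. UGT2B11, UGT2B17 and UGT2B28 are among the 6, and as close copies they may share probe signal. TNFRSF10B, also among the 6, had no called fall after siSCR here, with a change of 0.11 ± 0.17. UGT2B28 was detected on no siSCR array with or without testosterone. Its change of 0.19 ± 0.12 there lies between levels below detection, where a fall could not be seen. UGT2B11, another androgen-inactivating enzyme, fell by 0.68 ± 0.15 after siSCR and rose by 1.04 ± 0.15 after siPIAS1, whereas a second probe read 0.17 and 3.23, a difference of 3.06 with no fall after siSCR. BCHE, the serum cholinesterase, was the gene called lower, with an enhanced fall (-1.09 ± 0.15, adjusted p = 0.000514, and -0.32 in the authors' table). It was detected on no array with testosterone, so the size of its fall after siSCR is not resolved. Its siPIAS1 shift was 1.05 ± 0.11 without testosterone and -0.05 ± 0.11 with it. Among 15 measured genes of the androgen receptor and its partners, 1 was called in each direction (13.3%, against 9.94% over all genes). GRHL2, a grainyhead factor of epithelial genes, rose by 0.71 ± 0.11 after siSCR and fell by 0.49 ± 0.11 after siPIAS1, and GATA2, which opens sites for the receptor, fell by 1.61 ± 0.12 and 0.86 ± 0.12. In the SUMO pathway 1 of 19 was called (5.26%), the PIAS1 relative PIAS4 (0.60 ± 0.14, adjusted p = 0.0154). That call was lost without replicate 3 of siSCR with testosterone (adjusted p = 0.0506).

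Differences of DNA replication genes were mostly positive. Of 36 measured, 8 were called higher and 0 lower by limma (22.2%, against 9.94% over all genes; 14 and 0 at an unadjusted p under 0.05), all 8 as weakened falls. Positive differences numbered 30 of 36, against 5223 of 10710 over all genes. The median response of the list was -1.35 after siSCR and -0.86 after siPIAS1, and the median difference was 0.31. Among all 632 genes with an average fall of at least 1 unit, 25.2% were called, 99 as larger and 60 as smaller after siPIAS1. RRM2, the small subunit of ribonucleotide reductase, had signals of 9.57, 9.58 and 9.68 after siSCR, 7.998, 8.24 and 8.19 after siSCR with testosterone, 8.94, 8.996 and 9.19 after siPIAS1, and 8.56, 8.43 and 8.89 after siPIAS1 with testosterone. The siPIAS1 arrays were lower than siSCR arrays without testosterone and higher with it, with no overlap of the groups compared. It fell 2.77-fold and 1.33-fold, a difference of 1.05 ± 0.18, adjusted p = 0.00177. CDC45, a subunit of the replicative helicase, differed by 0.72 ± 0.14 and POLD1, the catalytic subunit of DNA polymerase delta, by 0.76 ± 0.15. Without the array that stood apart 13 were higher and 0 lower. Of 43 mitosis genes, 2 were called higher and 0 lower (4.65%; 5 and 2 at an unadjusted p under 0.05), and the median was -0.02. They were UBE2C, a ubiquitin-conjugating enzyme of the anaphase complex (0.47 ± 0.14, adjusted p = 0.0439; lost when any of 8 arrays was left out alone, with adjusted p up to 0.113, and with 0.0503 under 75th percentile scaling and 0.0699 under the replicate block), and KIF2C, a microtubule-depolymerizing kinesin (0.55 ± 0.14, adjusted p = 0.0276; lost when any of 6 arrays was left out alone, with adjusted p up to 0.0758). Both counted as lost falls. Without testosterone, UBE2C was lower after siPIAS1 by 0.44 ± 0.10 and KIF2C by 0.41 ± 0.10. With testosterone their siPIAS1 shifts were 0.03 ± 0.10 and 0.13 ± 0.10, and neither was called. In RNA of whole cultures, fewer expressing cells and less RNA per cell cannot be told apart.

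Genes of the unfolded protein response, which help proteins fold in the endoplasmic reticulum, also had mostly positive differences. Of 23 measured, 7 were called higher and 1 lower (34.8%, against 9.94% over all genes), 6 of the 8 as enhanced. Positive differences numbered 20 of 23, against 5223 of 10710 over all genes, and the median was 0.29. MANF, a secreted stress protein, rose by 0.32 ± 0.11 and 1.29 ± 0.11. SDF2L1, a partner of the chaperone BiP, rose by 0.52 ± 0.13 and 1.63 ± 0.13, and PDIA4, a disulfide isomerase, by 0.64 ± 0.13 and 1.46 ± 0.13. Without the array that stood apart 9 were higher and 1 lower. Of 20 genes of the ATF4 amino acid response, 2 were higher and 1 lower (15%). VLDLR, a lipoprotein receptor, was among the gained rises (1.13 ± 0.17, adjusted p = 0.000795), STC2, a secreted glycoprotein, among the enhanced falls (-0.80 ± 0.13, adjusted p = 0.0016), and CEBPB, a leucine zipper factor, among the enhanced rises (0.65 ± 0.18, adjusted p = 0.0403; lost when any of 8 arrays was left out alone, with adjusted p up to 0.11, and with 0.0632 without the detection filter and 0.0645 under the replicate block). Protein export and glycosylation genes had 0 of 42 called by limma (10 at an unadjusted p under 0.05, 6 higher and 4 lower), at a median of -0.06. The smallest p there belonged to SRP19 and SSR4, of the signal recognition particle and the translocon-associated complex, at 0.48 ± 0.15 and 0.46 ± 0.15.

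Cholesterol synthesis had 0 of 18 called by limma (2 higher and 3 lower at an unadjusted p under 0.05; median -0.24), with IDI1 at -0.40 ± 0.14 (adjusted p = 0.0961) and NSDHL at 0.39 ± 0.15 (adjusted p = 0.117). Without the array that stood apart 1 was lower. Of 18 fatty acid synthesis genes, 1 was higher and 3 lower (22.2%, against 9.94% over all genes). ELOVL5, which elongates polyunsaturated fatty acids, had an enhanced rise, 1.09 ± 0.10 against 2.21 ± 0.10, and ACSL4, which activates arachidonic acid, a gained fall (-0.91 ± 0.16, adjusted p = 0.00254); ACSL1 is described among the reversed genes. Of 25 hypoxia and glycolysis genes, 4 were higher and 3 lower (28%). ADM, the vasodilator peptide adrenomedullin, fell by 2.92 ± 0.14 and 1.66 ± 0.14. SLC2A3, a glucose transporter, rose 15.1-fold and 35.6-fold. HK2, hexokinase 2, had a weakened rise (-1.26 ± 0.20, adjusted p = 0.00132), and its second probe differed by only -0.26. In polyamine metabolism 13.3% of 15 genes were called. Polyamine metabolism had 1 of 15 higher, ODC1, the first enzyme of polyamine synthesis (0.49 ± 0.13, adjusted p = 0.0254; lost when any of 6 arrays was left out alone, with adjusted p up to 0.0755, and with 0.155 under 75th percentile scaling), and 1 lower, MTAP, which salvages methionine (-0.61 ± 0.16, adjusted p = 0.0316; lost when any of 7 arrays was left out alone, with adjusted p up to 0.0816, and with 0.0513 under the replicate block). Oxidative phosphorylation had 1 of 46 called (2.17%), NDUFS7, a subunit of complex I with a reversed response (0.97 ± 0.19, adjusted p = 0.00612). The share called was 2.22% for ribosomal proteins. Ribosomal proteins had 1 of 45 called, RPS3 (-0.54 ± 0.14, adjusted p = 0.0256; lost when any of 7 arrays was left out alone, with adjusted p up to 0.0779, and with 0.117 under 75th percentile scaling).

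Immediate early genes, the first to react to growth signals, had 4 of 13 called lower and 0 higher by limma (30.8%, against 9.94% over all genes; 1 higher and 6 lower at an unadjusted p under 0.05), with a median of -0.30 and of -0.12 without the array that stood apart. MYC, a driver of growth and ribosome production, gave 13.19, 13.28 and 13.28 after siSCR, 12.03, 11.95 and 11.82 after siSCR with testosterone, 12.83, 12.77 and 12.65 after siPIAS1, and 10.09, 9.96 and 9.59 after siPIAS1 with testosterone. Both testosterone groups were lower than their untreated groups, and siPIAS1 with testosterone was far below all other arrays. The fall was 2.49-fold after siSCR and 7.31-fold after siPIAS1, with a difference of -1.55 ± 0.17, adjusted p = 8.39e-05, and a second probe differed by -1.64. SPRY1, an inhibitor of receptor tyrosine kinase signalling, fell 1.52-fold and 4.49-fold (-1.56 ± 0.22, adjusted p = 0.000512). EGR1, a zinc finger factor, had a weakened rise (-0.98 ± 0.21, adjusted p = 0.00922), and JUN was the other gene called lower. Of 13 TGF-beta and BMP response genes, 3 were higher and 0 lower by limma (23.1%; 6 and 0 at an unadjusted p under 0.05). Positive differences numbered 12 of 13, against 5223 of 10710 over all genes, and the median was 0.46. They were SMAD6, an inhibitor of BMP signalling (0.96 ± 0.23, adjusted p = 0.0178; lost when any of 3 arrays was left out alone, with adjusted p up to 0.0559, and with 0.104 in the authors' table and 0.293 with undetected signals raised; not detected after siSCR with testosterone), ID3, a BMP target that blocks helix-loop-helix factors (0.64 ± 0.18, adjusted p = 0.0357; lost when any of 8 arrays was left out alone, with adjusted p up to 0.0997, and with 0.0538 without the detection filter and 0.0545 under the replicate block), and the matrix protein CCN1 (0.76 ± 0.22, adjusted p = 0.0418; lost when any of 7 arrays was left out alone, with adjusted p up to 0.11, and with 0.06 in the authors' table and 0.0732 without the detection filter).

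Of 12 NF-kB response genes, 0 were higher and 2 lower by limma (16.7%, against 9.94% over all genes; 0 and 6 at an unadjusted p under 0.05), CCL2 and RELB, an NF-kB subunit (-0.55 ± 0.14, adjusted p = 0.0275; lost when any of 7 arrays was left out alone, with adjusted p up to 0.0696, and with 0.107 in the authors' table and 0.0699 without background correction). Interferon response genes had USP18, which removes ISG15, higher (0.63 ± 0.16, adjusted p = 0.0264; lost when any of 6 arrays was left out alone, with adjusted p up to 0.0749, and with 0.0664 in the authors' table) and the peptide transporter TAP1 lower (-0.44 ± 0.13, adjusted p = 0.0421; lost when any of 10 arrays was left out alone, with adjusted p up to 0.114, and with 0.0716 under 75th percentile scaling and 0.0645 under the replicate block), of 17 (11.8%). Among 17 p53 targets (11.8% called), the death receptor TNFRSF10B was higher (1.06 ± 0.23, adjusted p = 0.0115) and SESN1, a stress-induced inhibitor of mTORC1, lower (-0.68 ± 0.15, adjusted p = 0.0115).

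Of 18 ERG-associated genes ADAMTS1 was called higher and TMPRSS2 lower (11.1%, against 9.94% over all genes). Of 18 ETS, FOXA1 and secretory lineage factors (22.2% called), 2 were higher, LYZ and PGC, and 2 lower, GFI1, a repressor known from blood and secretory cells (-1.17 ± 0.16, adjusted p = 0.000388), and CREB3L4, an androgen-induced factor of the endoplasmic reticulum that is also on the unfolded protein response list. GFI1 was detected on no array with testosterone, so that its falls were at least 1.02-fold after siSCR and at least 2.74-fold after siPIAS1. The share called was 14.3% of 14 luminal markers and 7.69% of 13 neuroendocrine markers. The luminal marker FOLH1, prostate-specific membrane antigen, fell 12.8-fold after siSCR and 7.77-fold after siPIAS1 (0.72 ± 0.18, adjusted p = 0.0203; lost when any of 5 arrays was left out alone, with adjusted p up to 0.0627, and with 0.444 in the authors' table, 0.0968 without background correction and 0.0705 with the mean of detected probes), its second probe differed by 0.28, and TMPRSS2 was the only other of 14 luminal markers called. Of 3 measured basal markers the integrin ITGA6 was called (-0.88 ± 0.25, adjusted p = 0.043). It kept that call under 6 of 22 alternatives, with adjusted p up to 0.402 and a difference of -0.29 with undetected signals raised and -0.19 in the authors' table. Further calls were CHGA, chromogranin A (-0.79 ± 0.22, adjusted p = 0.0401; lost when any of 9 arrays was left out alone, with adjusted p up to 0.0993, and with 0.0703 under 75th percentile scaling and 0.0717 without the detection filter), of 13 neuroendocrine markers and SNAI2, a repressor of epithelial genes (0.85 ± 0.19, adjusted p = 0.011; second probe 0.21), of 2 mesenchymal genes. LUM, the matrix proteoglycan lumican (-0.57 ± 0.16, adjusted p = 0.0393; lost when any of 8 arrays was left out alone, with adjusted p up to 0.101, and with 0.0502 under 75th percentile scaling and 0.0518 without the detection filter), was called of 3 fibroblast markers, and LYZ of 3 blood and endothelial markers. The summed signal of blood and endothelial markers was 1600 to 1680 on the arrays of siPIAS1 with testosterone and 990 to 1340 elsewhere, and LYZ was the member called.

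**Figure D5:**
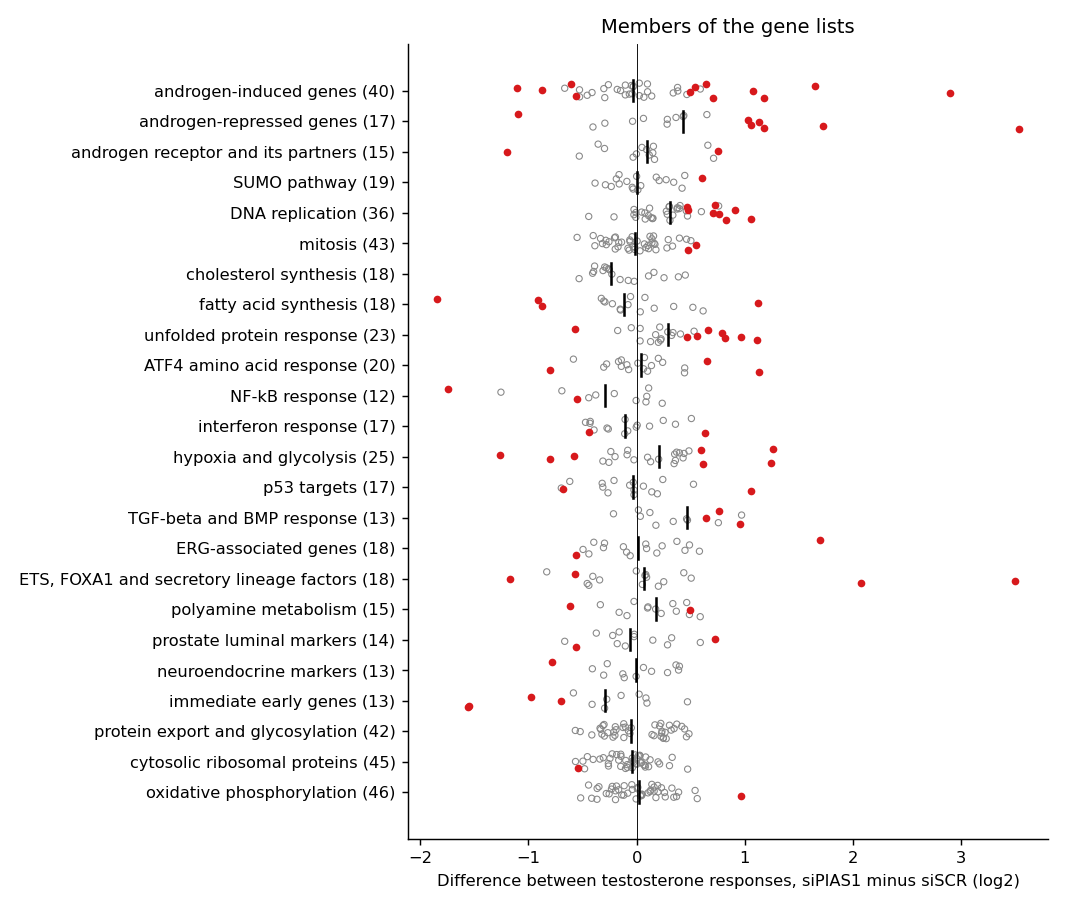
Difference between testosterone responses (siPIAS1 minus siSCR, log2) for each measured member of 24 gene lists, with called members as filled red points, others as open points, the list median as a black bar and the number measured in brackets. Among lists with 3 or more red points, these lie on the positive side alone for DNA replication and TGF-beta and BMP response, and on the negative side alone for immediate early genes.

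The number of calls depended on single arrays. It was 656 without replicate 3 of siSCR with testosterone, 663 without replicate 3 and 706 without replicate 1 of siPIAS1, 668 without replicate 3 of siSCR and 676 without replicate 2 of siSCR with testosterone.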

How the data were processed

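Per the file headers, the authors deposited the unnormalized scanner intensity of 47323 Illumina probes on each of 12 arrays, and beside each intensity a detection p-value. A second deposited table holds the authors' log2 values, normalized between arrays. For it the submitters' processing notes name lumi, its exact transform is not given in the sources, and it served as an alternative. Background correction and quantile normalization of the intensities used neqc (limma 3.58.1, R 4.3.3, offset 16). Probes with detection p under 0.01 on at least 3 arrays were kept (17835), named through the platform annotation with RefSeq symbols (30113 of all probes have 1 gene, 8 several, 17202 none), and the brightest detected probe stood for each of 10710 genes.

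The limma model had 4 group means on all 12 arrays (8 residual and 5.77 prior degrees of freedom), moderated two-sided tests and Benjamini-Hochberg adjustment over all genes. The number of arrays limits the precision. A detected level was set against an undetected one as at least N-fold, using per array the higher of the lowest detected signal and the probe's own. On data simulated from these arrays, differences of 1 and 2 units were recovered for 83 and 100 of 100 genes each. The simulation gave all arrays of a gene a common spread. The SD of an array's deviation from its group ran from 0.153 to 0.415 in the real data, so these recovery rates need not hold there.

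Named genes are PIAS1, the 4 genes with the largest difference in each class and direction that were detected on all 3 arrays of the brightest group (no symbols starting with LOC), the 3 called genes with the smallest p of each of 28 lists, and the 2 members with the smallest p where none was called. Others, named where a count was small or at the threshold, were chosen after their values were seen, as were the copies on chromosome 11. Members, lists and rules were chosen with earlier results of these data known. Replicate numbers were not used to pair arrays. Alternatives covered background, scaling, offset, filters, probe choice, weights, a replicate block, the threshold and each array left out.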

Additional observations from a re-analysis of the deposited data

Results flagged for a closer look

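The difference between the testosterone responses after siPIAS1 and after siSCR passed limma's test of the difference itself for 1065 genes at an adjusted p under 0.05. The named genes among them are given here with that difference (siPIAS1 minus siSCR, log2 units), and no explanation was weighed or tested. Among lost responses, the difference was negative for RASD1 (-2.24), FAM13C (-1.57), MIR574 (-1.41) and CSGALNACT1 (-1.40). Among lost responses, the difference was positive for TRIM51 (4.34), TRIM48 (4.06), TMEFF2 (1.84), AK5 (1.53), KIF2C (0.55) and UBE2C (0.47). Among weakened responses, the difference was negative for ANXA2P1 (-1.94), NBL1 (-1.82), ADGRG2 (-1.79), CCL2 (-1.74), HK2 (-1.26), TMPRSS2 (-0.56) and EGR1 (-0.98). Among weakened responses, the difference was positive for GRM5P1 (3.34), TRIM49C (2.91), TTR (1.96), ADAMTS1 (1.70), GATA2 (0.75), RRM2 (1.05), CDC45 (0.72) and POLD1 (0.76). It was also positive for ADM (1.26), SMAD6 (0.96) and FOLH1 (0.72). Among enhanced responses, the difference was negative for CEMIP (-2.34), KCTD12 (-2.27), MMP10 (-1.92), FFAR4 (-1.91), BCHE (-1.09), STC2 (-0.80), TAP1 (-0.44) and SESN1 (-0.68). It was also negative for GFI1 (-1.17), MTAP (-0.61), LUM (-0.57), MYC (-1.55) and SPRY1 (-1.56). Among enhanced responses, the difference was positive for LYZ (3.50), CYP4F22 (2.30), S100P (2.11), PGC (2.07), ELL2 (1.65), UAP1 (1.17), ELOVL5 (1.12) and MANF (0.97). It was also positive for SDF2L1 (1.11), PDIA4 (0.81), CEBPB (0.65), USP18 (0.63), SLC2A3 (1.24), ODC1 (0.49) and SNAI2 (0.85). Among gained responses, the difference was negative for LGI1 (-2.11), MAN2A1 (-1.58), RIMBP2 (-1.45), CPNE4 (-1.44), ACSL4 (-0.91), RELB (-0.55), ITGA6 (-0.88) and CHGA (-0.79). It was also negative for RPS3 (-0.54). Among gained responses, the difference was positive for UGT2B28 (3.54), RNF148 (2.71), FOXJ1 (2.40), REP15 (2.33), PIAS4 (0.60), VLDLR (1.13), TNFRSF10B (1.06) and ID3 (0.64). It was also positive for CCN1 (0.76). Among reversed responses, the difference was negative for PTK6 (-1.90), ATP1B1 (-1.90), ACSL1 (-1.84), TMEM154 (-1.79) and GRHL2 (-1.20). Among reversed responses, the difference was positive for TRIM49D2 (3.45), TRIM49D1 (3.28), SLC4A4 (2.94), PTGER4 (2.89), UGT2B11 (1.72) and NDUFS7 (0.97).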

How the results depend on the processing

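The count of 1065 calls stayed within 1.5 times under 17 of 24 alternatives. With array weights, which give replicate 3 of siPIAS1 with testosterone a weight of 0.118, 2612 genes were called (1315 higher and 1297 lower), as 618 lost, 396 weakened, 608 enhanced, 767 gained and 188 reversed responses, with 170 called among list members and a median turned difference of 0.046. At an adjusted p under 0.01 the counts were 422 (203 and 219), 80, 69, 105, 135 and 32, with 36 list members. Among differences of at least 1 unit the classes held 38, 41, 82, 61 and 47 genes. With classes set by the ratio of responses, 213 were reversed. Genes with a larger response after siPIAS1 numbered 222 in the authors' table, 352 without background correction and 362 with detection on all 12 arrays. Other numbers of genes enter these counts than the 1091 above, and their totals are not given. The counts therefore do not show whether the share of 57.3% held. With a minimum average response of 0.5 the count was 1971 of 3307 (59.6%). Leaving out single arrays gave 656 to 1506 calls (311 to 730 higher, 337 to 776 lower), 107 to 293 lost, 106 to 235 weakened, 172 to 382 enhanced, 193 to 632 gained and 53 to 103 reversed responses, 52 to 101 list members, 588 to 668 larger responses and a median turned difference of 0.068 to 0.147. The highest counts of calls came without replicate 2 (1506) or 3 (1438) of siPIAS1 with testosterone. The cause was not tested. With each array scaled to its 75th percentile, 559 genes were higher and 459 lower (54.9% higher, against 49.1%), at a shift of the median of all genes of 0.012. Of 85 named genes with a call, 60 kept call and sign in every alternative that included them and 66 in all of these but the stricter threshold. None, 0 of the 85, changed sign. The alternative with detection on all 12 arrays included only 46 of the 85. The 85 were picked by the size or p-value of their difference, so these counts do not describe all 1065 calls. Differences of these 85 genes were smaller by over 1.5 times for 48 in the authors' table, for 30 without background correction, for 11 with undetected signals raised and for 5 with an offset of 50. Of the 48, 14 were detected on all 12 arrays, CEMIP (-1.41) and TTR (1.29) among them, and 0 of the 30. Same-numbered arrays did not pair: 3 of 18 pairs had a correlation of deviations above 0.1 (range -0.26 to 0.20), and the replicate block gave 942 calls. Leaving out the chromosome 11 copies, chosen after seeing the data, gave 1058. The slide as a block was not run, since the headers give no slide. Of 615 list medians under alternatives, 555 stayed within the spread between arrays and 58 changed sign.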

Other observations

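Probes with no gene listed were tested in a fit over all 17835 detected probes, of which 1384 (7.76%) were called for the difference between responses. Of the 3765 probes with no gene listed, 227 (6.03%) were called, 119 higher and 108 lower after siPIAS1.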
